A study of Drosophila melanogaster with 12 samples.

Results

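The question was whether the miRNAs loaded in fly heads differ between the hours around lights on and the hours around lights off. The dawn group held 6 libraries, from ZT21 and ZT3, and the dusk group held the other 6, from ZT9 and ZT15, so all 12 libraries of the series were used. Zeitgeber time (ZT) counts the hours since the lights came on. Flies had been kept at 18°C, at 25°C or at 29°C, and each temperature gave 1 library per time point. The flies of both groups were of the wild-type strain Canton-S, and the tissue was the whole head. AGO1 was immunoprecipitated from head lysate, and the small RNAs that came down with it were sequenced, so a level here is a level in AGO1 and not in the whole cell. The sources give no age or sex, and nothing says that libraries of one temperature came from separate cultures. The p-values therefore measure only the spread between these libraries, which may be technical. It also holds changes with time and light, since each group joins a dark hour (ZT21 or ZT15) and a light hour (ZT3 or ZT9). A difference between light and dark hours alone would cancel in this contrast. In a whole head, fewer cells of a type and less RNA per cell cannot be told apart.

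MicroRNAs are short RNAs cut from hairpin precursors, and each hairpin can give a 5p and a 3p mature strand. In Drosophila AGO1 holds the mature strand and uses it to find and repress target mRNAs. In the fly clock, CLOCK and CYCLE switch on period and timeless (tim), whose proteins build up at night and shut off their own transcription. Several miRNAs act on this loop. Bantam targets Clock, let-7 targets clockwork orange, miR-276a targets tim, and miR-279 and miR-124 act on the outputs that drive locomotor rhythms.

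Dawn and dusk libraries were close in depth. In units of 1000000 miRNA reads they held 11.2 ± 3.55 at dawn and 11.3 ± 3.52 at dusk (SD, n = 6 each; two-sided exact permutation within temperature, p = 0.972). The shallowest library was the dawn library of 29°C at ZT21, with 4423511 reads, and the deepest was the dusk library of 25°C at ZT15, with 16840372. The number of miRNAs detected (327 ± 20.2 at dawn, 328 ± 13.1 at dusk; exact permutation p = 0.935) also differed by less than the spread. Values below are the deposited ones, reads divided by a library's size factor, on which 3 reads are worth 1.97 to 7.65. The library of 29°C at ZT21 also stood apart after temperature was removed, at 8.10 on the first principal component (35.9% of the variance), with the others between -5.73 and 4.06.

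No miRNA differed between dawn and dusk at an adjusted p under 0.05. Of 235 miRNAs with enough reads, 0 passed (0%) in the limma fit with temperature as covariate, and the smallest adjusted p was 0.969. At an unadjusted p under 0.05 there was 1 miRNA (0.426%), miR-284-5p. With no difference anywhere, a threshold of 0.05 would be expected to pass a larger share than this. The spread in the fit also holds changes between the hours joined in a group, so the test can miss real differences. On the recovered reads edgeR and DESeq2 also called 0, with 4 and 5 at an unadjusted p under 0.05. In the same limma fit the temperature term passed the adjusted threshold for 84 of the 235 (35.7%). Leaving out the library of 29°C at ZT21 gave 0 adjusted calls and 2 unadjusted, and leaving out the dawn library of 18°C at ZT3 gave 0 and 10.

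The differences were small where the depth was high. The median absolute log2 difference over the 235 miRNAs was 0.08, a 1.06-fold change, and 115 were higher and 120 lower at dawn. Among the 100 rows with a mean of at least 1000 reads, from 97 distinct miRNAs, the log2 differences ran between -0.29 and 0.28, and the 95% interval of all 100 lay within 2-fold. Over all 235 the interval lay within 2-fold for 208 (88.5%) and within 1.5-fold for 158 (67.2%). By depth, the interval lay within 2-fold for 154 of 162 rows with a mean of at least 100 reads and for 54 of 73 rows below it. The 235 tested rows stand for 231 distinct miRNAs, because miR-2a-3p, miR-2b-3p, miR-281-3p and miR-6-3p each kept a near-identical row from a second hairpin, and counts here are of rows.

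**Figure D1:**
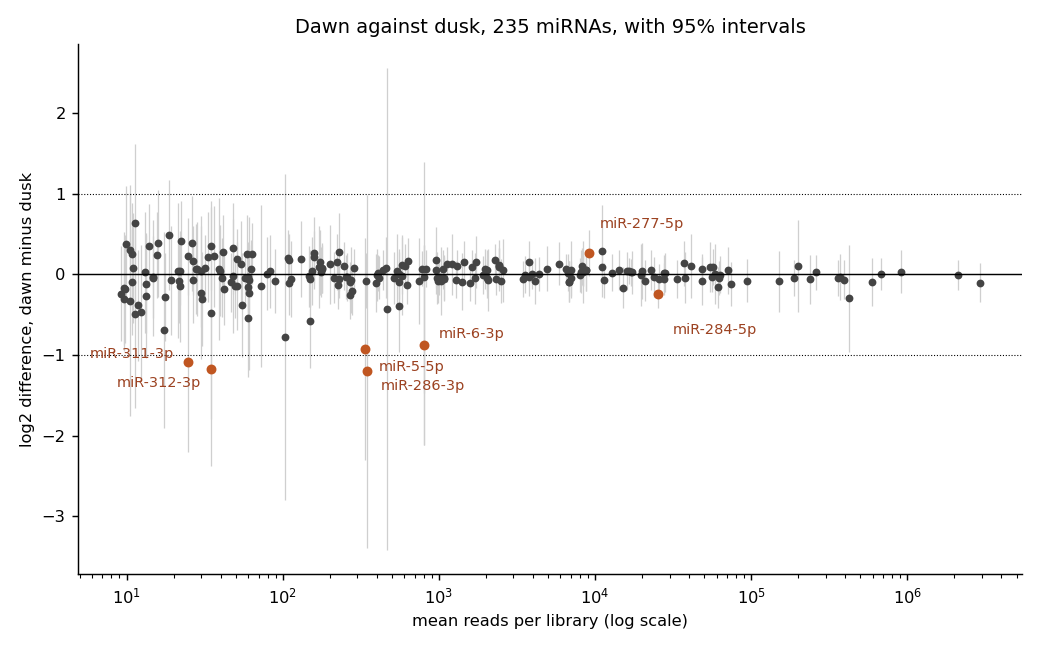
The log2 difference, dawn minus dusk, of each of 235 miRNAs (points, vertical axis) against its mean reads per library (log horizontal axis), with 95% intervals as grey lines and dotted lines at 2-fold. The 100 rows above 1000 reads lie between -0.29 and 0.28, and the labelled miRNAs at the bottom left, miR-311-3p, miR-312-3p, miR-286-3p, miR-5-5p and miR-6-3p, have intervals that reach past 0.

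Libraries of the same group differed from each other by at least as much as the groups did. Such libraries also differed in time of day and in light, so their differences are not those of replicates alone. The median absolute log2 difference over miRNAs at 18°C was 0.17 between the dawn mean and the dusk mean, against 0.31 between ZT21 and ZT3 and 0.30 between ZT9 and ZT15. At 25°C these values were 0.11, 0.36 and 0.21, and at 29°C they were 0.19, 0.37 and 0.26. A difference of 2 single libraries varies more than one of 2 means by the square root of 2. After division by it, the values within dawn and within dusk were 0.22 and 0.21 in the cold, 0.25 and 0.15 at 25°C, and 0.26 and 0.19 in the warm, each at or above the dawn-dusk value of its temperature.

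miR-284-5p was the miRNA closest to a difference. It comes from a hairpin at 3R:12551515-12551614 on the minus strand (BDGP6.54), inside an annotated 3′ UTR exon of Octbeta2R, an octopamine receptor gene, and miR-284 is known to limit glutamate receptor subunits in the fly. At 18°C it was at 12176 (ZT21) and 10917 (ZT3) at dawn, against 14263 (ZT9) and 15362 (ZT15) at dusk. At 25°C the dawn values were 23012 and 22823, against 24275 and 27892 at dusk. At 29°C they were 32634 and 35326 at dawn, against 39178 and 37754 at dusk. At each temperature both dawn libraries lay below both dusk libraries, although across temperatures the groups overlapped widely.

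The log2 difference of miR-284-5p was -0.24 (95% interval -0.42 to -0.06), a level 15.4% lower at dawn, with a limma p of 0.0116 that became 0.969 after adjustment. It was the only 1 of 235 (0.426%) whose dawn and dusk libraries were separated the same way at all 3 temperatures. With so few libraries per temperature, some rows separate in this way by chance, and the share expected from it was not computed. The separation of miR-284-5p also rested on the scaling: with TMM or total read scaling the 25°C dawn library of ZT21 (24466 and 25915) lay above the dusk library of ZT9 (24283 and 24252). The 3p strand of the same hairpin went the other way, with a log2 difference of 0.12 and values of 957 to 1288 at dawn against 889 to 1177 at dusk.

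Among the next miRNAs by p, 3 of middle or high abundance were miR-277-5p, miR-929-5p and miR-263a-3p. miR-277 is known to repress genes of branched-chain amino acid breakdown, and its main strand is 3p. The minor strand, miR-277-5p, was at 14559 and 13776 at dawn against 12768 and 12705 at dusk at 18°C, and at 9214 and 7901 at dawn against 6545 and 6220.2 at dusk at 25°C. At 29°C the groups overlapped, with 6138 and 3492 at dawn against 3453 and 4562 at dusk. Its log2 difference was 0.26 (95% interval -0.02 to 0.55; limma p of 0.0634, adjusted p = 0.969), while miR-277-3p was at 0.03.

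miR-929-5p comes from an intron of cpx, which encodes the synaptic protein complexin (3R:4295369-4295456). It was higher in both dawn libraries at 25°C (2215 and 2102, against 1804 and 2069 at dusk) and at 29°C (2543 and 3321, against 2258 and 2458). At 18°C the values overlapped, with 1954 and 1723 at dawn and 1717 and 1788 at dusk. The log2 difference over all temperatures was 0.18 (95% interval -0.03 to 0.38; limma p of 0.089, adjusted p = 0.969). miR-263a-3p was at 137 to 392 at dawn (median 195) and 137 to 419.6 at dusk (median 253), a log2 difference of -0.26, and its groups were separated only at 25°C.

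**Figure D2:**
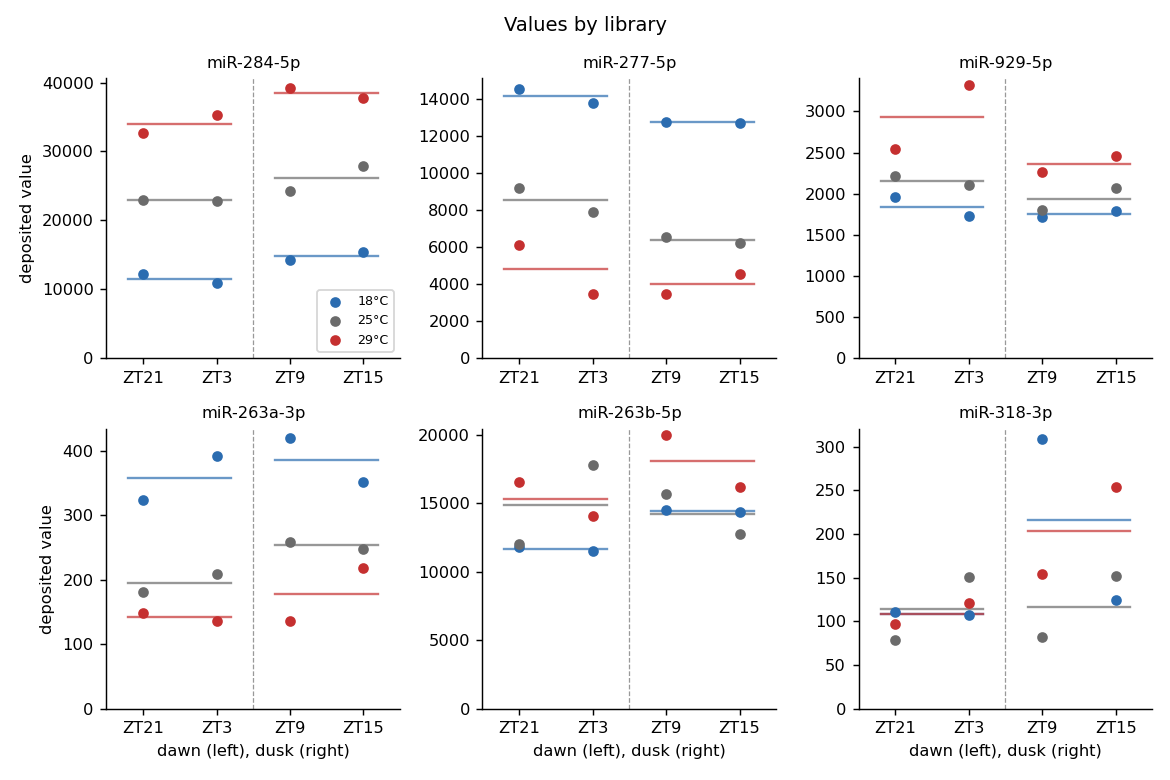
Deposited values (vertical axes, from 0) of 6 miRNAs in each library, at ZT21 and ZT3 (dawn, left of the dashed line) and at ZT9 and ZT15 (dusk, right), coloured by temperature, with a bar at the mean of each pair. For miR-284-5p the dawn points lie below the dusk points of their own colour, from 10917 and 12176 against 14263 and 15362 at 18°C, while for the other 5 miRNAs at least 1 colour overlaps.

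Within 1 temperature, both dawn libraries lay above both dusk libraries for 24 miRNAs in the 18°C flies (10.2%), for 19 in those of 25°C (8.09%) and for 35 in those of 29°C (14.9%). They lay below both dusk libraries for 26 (11.1%), 15 (6.38%) and 31 (13.2%). With so few libraries per group, such separations also arise by chance, and the shares expected from it were not computed. Separation at 2 temperatures in the same direction, without the opposite at the third, was seen for 14 of 235 miRNAs (5.96%). Besides those above, these held miR-310-3p, miR-311-3p and miR-312-3p, lower at dawn at 25°C and 29°C, and miR-318-3p, lower at dawn at 18°C and 29°C. Another 12 miRNAs were separated in opposite directions at 2 temperatures.

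These 4 miRNAs are the tested members of a list of ovary miRNAs. The mir-310 to mir-313 hairpins lie together at 2R:20583752-20584260 and their miRNAs are known from the germline, and miR-318 is known from ovarian follicle cells. All 4 were lower at dawn, with a median log2 difference of -0.89 beside -0.00478 over all 235 miRNAs, and none passed the test. They were scarce in heads: summed over the list the value was 95.7 to 201 at dawn (median 176) and 166 to 406 at dusk (median 243), and the defining miR-313-3p was at 0 in all but 1 library. Ovary tissue is not part of the labelled tissue, and its part in these differences was not tested.

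The log2 difference of miR-312-3p was -1.17 (95% interval -2.38 to 0.03; limma p of 0.0559, adjusted p = 0.969). It was at 25.6 and 38.4 at dawn and 26.4 and 28.9 at dusk at 18°C, where the groups overlapped. At 25°C it was at 10.6 and 22.7 at dawn against 50.03 and 34.8 at dusk. At 29°C it was at 2.55 and 33.3 at dawn against 46.5 and 63.4 at dusk, and the value of 2.55 came from the shallow library of ZT21, where 3 reads are worth 7.65. Without that library the log2 difference was -0.62. That of miR-311-3p was -1.08 (limma p of 0.0564, adjusted p = 0.969), and -0.63 without the dawn library of 25°C at ZT21. For miR-318-3p the log2 difference was -0.58, with 79.0 to 150.3 at dawn (median 109) and 81.7 to 308 at dusk (median 153). Its neighbour miR-994-5p, cut from a hairpin less than 1 kb away on 3R, was at -0.54. Both were highest in the dusk library of 18°C at ZT9, at 308 and 179.

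The largest negative difference at a mean of at least 100 reads belonged to miR-286-3p, with -1.20 (95% interval -3.40 to 0.99; limma p of 0.244, adjusted p = 0.969). miR-5-5p (-0.92) and miR-6-3p (-0.88) followed. All 3 are cut from the mir-309 cluster at 2R:19660716-19661774, which lies in a long noncoding RNA, lncRNA:CR44504, and is known for clearing maternal mRNAs in the early embryo. At 18°C miR-286-3p was at 151 and 930.3 at dawn against 119 and 156 at dusk. At 25°C it was at 71.4 and 110.3 at dawn against 954 and 72.8 at dusk, and at 29°C at 53.6 and 50.3 at dawn against 398 and 899 at dusk. One dawn library was thus as high as the high dusk libraries, and the groups overlapped at 18°C and at 25°C.

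Summed over 6 miRNAs of the cluster, the value was 425 to 3953 at dawn (median 661) and 636 to 3888 at dusk (median 1637). It was high in 4 libraries, those of 18°C at ZT3 (3953), 25°C at ZT9 (3888), 29°C at ZT9 (2138) and 29°C at ZT15 (2992), and between 425 and 1135 in the other 8. This list was drawn up after the values of its members were seen. Without the 4 libraries 0 miRNAs were called. Embryos are not part of the labelled tissue, and their part in the differences of these miRNAs was not tested.

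**Figure D3:**
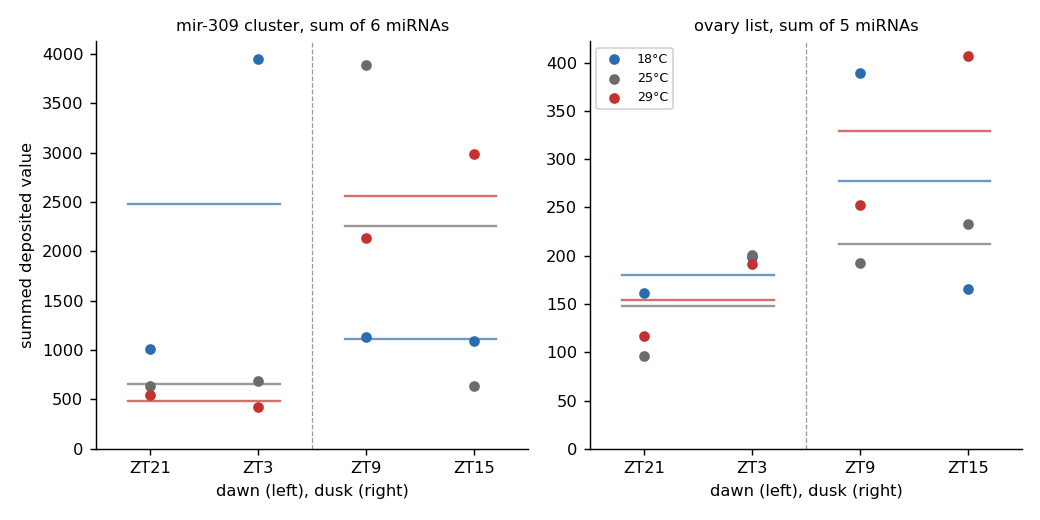
Summed deposited value (vertical axes, from 0) of the mir-309 cluster (left) and of the ovary list (right) in each library, at ZT21 and ZT3 (dawn, left of the dashed line) and ZT9 and ZT15 (dusk, right), coloured by temperature, with a bar at the mean of each pair. The cluster is at 2138 or more in 1 dawn and 3 dusk libraries, and the ovary list reaches 201 at dawn and 406 at dusk.

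The largest positive differences at a mean of at least 100 reads were those of miR-210-5p (0.28), miR-2a-1-5p (0.28) and miR-277-5p (0.26). miR-210 is expressed in photoreceptors and clock neurons, and the miR-2 family is known to repress pro-apoptotic genes. miR-210-5p was at 4833 to 24490.0 at dawn (median 9096) and 3671 to 25929.5 at dusk (median 6582), and at no temperature were its groups separated. miR-2a-1-5p, from an intron of the EGF ligand gene spi, was at 158 to 341 at dawn (median 254) and 158 to 321 at dusk (median 186). At 25°C and 29°C its ZT21 values (341 and 314) were the highest and its ZT3 values (165 and 158) lay within 10 of a dusk value. Of low abundance, miR-282-3p was at 0.42, with a median of 23.9 at dawn and 13.9 at dusk, and miR-9371-5p at 0.49, where the median at dawn was below the 12.5 at dusk.

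Of 17 miRNAs listed for a role in the fly clock or its outputs, 12 were tested and 0 passed (background 0%). At dawn 6 were higher and 6 lower, with a median log2 difference of -0.03 and a smallest unadjusted limma p of 0.179. The 95% interval lay within 2-fold for all 12 and within 1.5-fold for 10.

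Those that act on the core loop were close between dawn and dusk. miR-276a-3p, which represses tim, made up 25.4 ± 2.61% of the reads at dawn and 26.4 ± 1.26% at dusk (SD, n = 6 each), a log2 difference of -0.10 (95% interval -0.34 to 0.14). Its close relative miR-276b-3p was at -0.07. Bantam-3p, which targets Clock, held 6.04 ± 0.738% of the reads at dawn and 5.82 ± 0.706% at dusk, with a log2 difference of 0.01 (95% interval -0.19 to 0.21). let-7-5p, which acts on clockwork orange, was at 93568 to 179064 at dawn (median 131138) and 91293 to 175525 at dusk (median 148054), with -0.08. For these 4 the dawn and dusk values overlapped.

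Some miRNAs of clock neurons and outputs were further apart than those of the core loop, though none passed the test. miR-263b-5p and miR-263a-5p, which share a family, were at -0.17 and -0.16, with medians of 13056 and 56531 at dawn and 15101 and 62259.8 at dusk. At 18°C miR-263b-5p was lower in both dawn libraries (11804 and 11551, against 14495 and 14381 at dusk), and at 25°C its groups overlapped (12002 and 17792 at dawn, 15706 and 12797 at dusk). miR-279-3p, which acts on JAK/STAT signalling downstream of the clock, was at 0.05, and miR-996-3p, cut from the same transcript, at 0.10. miR-210-3p was at 0.04 and miR-92a-3p, which acts in the PDF neurons of the clock, at -0.08.

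The largest difference in the list was that of miR-124-3p, a miRNA of neurons that sets the phase of evening activity, at 0.26 (95% interval -0.19 to 0.71; limma p of 0.23, adjusted p = 0.969). It was at 99.0 to 268 at dawn (median 155) and 86.0 to 232 at dusk (median 128), and separated only at 29°C. It was present in every library but scarce, with a mean of 158 reads against 956 for miR-124-5p of the same hairpin. From the mir-959 to mir-964 cluster, whose primary transcript is known to cycle in the fat body of the head, 2 strands were tested, miR-964-5p of the clock list and miR-963-3p. miR-963-3p was at -0.47 (95% interval -1.30 to 0.36). miR-964-5p was at 16.1 to 72.7 at dawn (median 23.7) and 10.2 to 57.8 at dusk (median 24.2), with a log2 difference of 0.22 (95% interval -0.34 to 0.78). Its level was highest in the 4 libraries of 29°C.

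**Figure D4:**
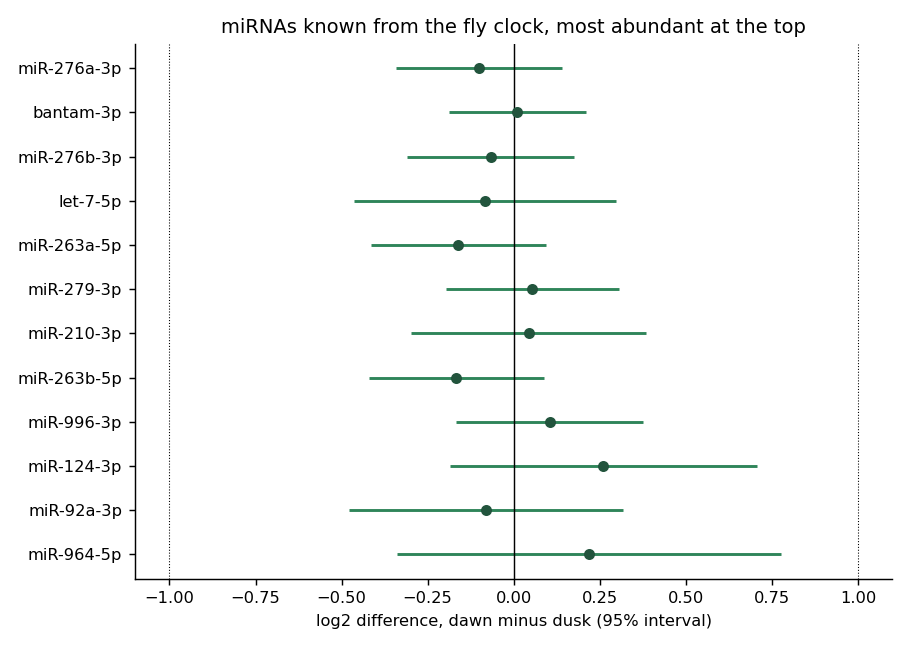
Log2 difference, dawn minus dusk (points, horizontal axis), with its 95% interval for the 12 tested miRNAs of the clock list, ordered by abundance from the top, and dotted lines at 2-fold. Every interval includes 0, and the points run between -0.17 and 0.26.

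A second list held 38 miRNAs with sites that the study predicted in the 3′ UTR of the long tim isoform, of which 20 were tested and 0 passed (background 0%). At dawn 9 were higher and 11 lower, with a median log2 difference of -0.03. The lowest was miR-969-3p, at -0.40 (95% interval -0.96 to 0.17; limma p of 0.152, adjusted p = 0.969). Its values were 269 to 831 at dawn (median 404) and 259.8 to 1310.3 at dusk (median 578). The dusk library of ZT9 was the highest of the 4 at each temperature, with 1310.3 in the cold, 765 at 25°C and 408 in the warm. At no temperature did both dawn libraries lie below both dusk libraries. The highest was miR-4975-5p, at 0.33, with a median of 44.1 at dawn and 39.3 at dusk. The tim list shares miRNAs with the clock list, so the results of these lists are not separate. For the 3′ UTR region common to several tim isoforms the paper counts fewer miRNAs, and the list was not matched to that count.

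The most abundant miRNAs had similar shares in the groups. miR-14-3p, known for its part in metabolism and cell survival, held 19.1 ± 2.91% of the reads at dawn and 18.6 ± 1.89% at dusk. miR-8-3p, a regulator of growth and insulin signalling, held 7.99 ± 1.46% at dawn and 7.67 ± 1.84% at dusk. miR-184-3p held 5.08 ± 0.762% at dawn and 5.26 ± 0.821% at dusk (SD, n = 6 each). Each difference was smaller than the spread within either group. The sum of the top 5 was 63.6 ± 1.52% at dawn and 63.8 ± 1.06% at dusk (exact permutation p = 0.852).

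The dawn-dusk difference was next compared between temperatures. The interaction passed for 0 of 235 miRNAs (0%; smallest adjusted p 0.998 in limma), and 3 (1.28%) had an unadjusted p under 0.05. These were miR-9375-3p, miR-4976-5p and miR-305-5p, of which only miR-305-5p is abundant. miR-305, known from intestinal stem cells, gave 45869 and 41618 at dawn against 54838 and 51974 at dusk at 18°C, a log2 difference of -0.29. At 29°C it gave 80715 and 54329 at dawn against 49743 and 41036 at dusk, a difference of 0.55, and at 25°C the difference was 0.01. The highest value, 80715, came from the shallow library of ZT21. Without the dawn library of 29°C at ZT3, 1 miRNA passed the interaction test, miR-312-3p (limma adjusted p = 0.0417). The dawn group of that temperature was then the ZT21 library alone, assumed to vary like the others, in which miR-312-3p was at 2.55, under the value of 3 reads.

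Taken 1 temperature at a time, 0 miRNAs passed at each (0%). An unadjusted p under 0.05 was reached by 1 miRNA (0.426%) in the cold, by 1 (0.426%) at 25°C and by 9 (3.83%) in the warm. The 1 at 18°C was miR-284-5p and the 1 at 25°C was miR-311-3p. The 9 at 29°C held miR-6-3p in both of its rows, miR-286-3p and miR-5-5p of the mir-309 cluster, and miR-312-3p.

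The balance of the strands of a hairpin does not depend on the scaling between libraries, so it was tested as the log2 ratio of 5p to 3p reads. Of 89 hairpins with both strands, 0 passed (0%; smallest adjusted p 0.797 in limma) and 2 (2.25%) had an unadjusted p under 0.05. Some of the 89 ratios share reads and are not independent. mir-276a and mir-276b have the same 5p reads, and mir-13b-1 and mir-13b-2 the same 3p reads. The paired hairpins of mir-2a, mir-2b and mir-281 have nearly the same 3p reads. In mir-284 the 5p strand was 4.24 ± 0.652 log2 units above the 3p strand at dawn and 4.60 ± 0.516 at dusk (SD, n = 6 each), a difference of -0.37 (limma p of 0.0165, adjusted p = 0.797). At 18°C the ratio was 3.45 and 3.51 at dawn against 4.00 and 4.10 at dusk, and at 29°C it was 4.93 and 4.88 at dawn against 5.19 and 5.08 at dusk. At 25°C the ZT3 library (4.50) lay above the ZT9 library (4.37), so the groups overlapped there. mir-4951, in an exon of the heat-responsive noncoding RNA Hsromega, differed by -0.58 (limma p of 0.0179, adjusted p = 0.797), with 4.02 ± 0.641 at dawn and 4.60 ± 0.728 at dusk. Its 3p strand had a mean of only 13.8 reads. At 18°C its groups overlapped, with 3.72 and 5.03 at dawn against 5.29 and 4.81 at dusk, and they also overlapped at 29°C. The next were mir-282 (-0.39), mir-986 (-0.38) and mir-277 (0.24). Reads were also few for mir-282 (means of 22.1 for 5p and 22.4 for 3p) and mir-986 (46.4 and 41.2). No hairpin was separated the same way at all 3 temperatures, and the 95% interval lay within 2-fold for 84 of the 89.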

How the data were processed

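Small RNAs from AGO1 immunoprecipitates of fly heads were sequenced in 12 libraries, prepared with an NEBNext small RNA kit. The authors assigned reads to mature miRNAs with the miRExpress pipeline and miRBase, and tested temperature with DESeq2. The aligner settings, adapter trimming and length limits are not given in the sources used here. The deposited values are a signal, reads divided by 1 size factor per library: 100% of 4896 values were whole multiples of a library's step within 0.01, and reads were recovered from these steps. Of 408 rows, 5 that repeat a miRNA at another hairpin were dropped. Second rows of miR-2a-3p, miR-2b-3p, miR-281-3p and miR-6-3p differ slightly in value and were kept, though they hold nearly the same reads.

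Dawn (ZT21, ZT3) was tested against dusk (ZT9, ZT15) with limma 3.58.1 (R 4.3.3) on log2(value + 1), with trend and robust moderation and temperature as a factor. A fold change on this scale understates that of scarce miRNAs. The 235 rows kept by filterByExpr were tested, with Benjamini-Hochberg adjustment and a threshold of 0.05. The same fit gave the interaction and the differences within temperatures. Strand ratios used reads + 0.5 in hairpins with a mean of at least 10 reads in both strands. They were taken from all deposited rows, with the repeated rows included. Library measures were compared with two-sided exact permutation tests within temperature (216 arrangements, smallest possible p 0.00926; 4 measures, each with an adjusted p of 0.972). Depth was 4423511 to 16840372 reads per library. Intervals cover the spread between libraries. Reads carry no molecular identifiers.

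Alternatives were edgeR 4.0.16 and DESeq2 1.42.0 on the recovered reads, TMM and total read scaling, pseudocounts of 0.5 and 10, other filters, array weights, no trend, no temperature term, and leaving out libraries or temperatures. The limma fits of dawn against dusk and of the interaction were run on simulated reads with known differences. The strand ratio, the permutation test and the alternatives were not tested in this way. Positions are from the Ensembl annotation of BDGP6.54, which may not be the build of the hairpin set used by the authors. Mature sequences were not used here, so miRNAs were not grouped by seed.

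Named miRNAs were the 12 with the smallest p, the 3 highest and 3 lowest differences at a mean of at least 100 reads, those separated at all 3 temperatures, the 5 most abundant, the tested clock list, the 5 hairpins with the smallest strand-ratio p, the 3 with the smallest interaction p, and the extremes of the tim list. miR-310-3p, miR-963-3p, miR-3, miR-4, miR-956-3p, miR-316-3p and the strands named with a partner were added after their values were seen. The comparison, members and lists were chosen with earlier results of these data known.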

Additional observations from a re-analysis of the deposited data

Results flagged for a closer look

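Among 80 sets of 6 values, 4 had 1 library far from the other 5. Chance would give about 1 of 20 independent sets. These sets are not independent, since some hold miRNAs of 1 cluster or near-identical rows, so the count cannot be set against chance. After each temperature's mean was removed, miR-318-3p was out of line in the dawn library of 25°C at ZT3, where its value was 150.3, at 0.44 log2 units above its temperature mean while the other dawn libraries lay between -0.59 and -0.27. The dawn library of 18°C at ZT3 was out of line for miR-286-3p, with a value of 930.3, and for both rows of miR-6-3p, with 1903. It is 1 of the 4 libraries in which the whole mir-309 cluster was high.

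For 4 of the 36 named miRNAs both dawn libraries lay above both dusk libraries at one temperature and below them at another. Over all tested miRNAs this was so for 12 of 235. These were miR-14-3p (lower at dawn at 25°C, higher at 29°C; interaction p-value 0.559 in limma), miR-92a-3p (higher at 18°C, lower at 29°C; 0.353), miR-4976-5p (lower at 18°C, higher at 29°C; 0.0423) and miR-305-5p (lower at 18°C, higher at 29°C; 0.0443). miR-4976-5p and miR-305-5p were named for their small interaction p-values, so those values follow from the choice. After adjustment over all miRNAs each of the 4 interaction p-values was 0.998.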

How the results depend on the processing

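The count of miRNAs called between dawn and dusk was 0 under all 28 alternatives (smallest adjusted p 0.413), and the unadjusted count ran from 1 to 10, against 1. It was 10 without the dawn library of 18°C at ZT3 and 9 both without the 18°C libraries and without a filter. Arm ratios gave 0 calls under all 16 alternatives. The interaction gave 0 in 21 of 22, and leaving out 1 library at a time gave 0 to 1. The count separated at all 3 temperatures was 0 with TMM scaling and 0 with total read scaling, since miR-284-5p then overlapped at 25°C. For miR-284-5p the log2 difference ran from -0.28 to -0.18 over 27 alternatives, with an unadjusted p under 0.05 in 23 and an adjusted p from 0.750 up. TMM and total read scaling moved the median difference of all miRNAs to 0.03 and 0.04.

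Of 962 values of the 36 named miRNAs under alternatives, 906 kept their sign, 56 in 13 miRNAs changed it, and 0 passed the adjusted threshold. By tool or scaling, miR-14-3p became 0.0229 (edgeR), 0.0215 (TMM) and 0.0312 (total reads), miR-9375-3p 0.112 (edgeR) and miR-4976-5p -0.00106 (array weights). Without 18°C, miR-8-3p was -0.0182, miR-276b-3p 0.0233 and miR-279-3p -0.0264. Without 25°C, miR-14-3p was 0.0576, miR-210-3p -0.00789 and miR-92a-3p 0.0229. Without 29°C, bantam-3p was -0.0738, miR-210-3p -0.0245, miR-92a-3p 0.0171, miR-996-3p -0.00754, miR-9375-3p 0.48, miR-4976-5p -0.53 and miR-305-5p -0.14. Without the 4 libraries high in the mir-309 cluster, an alternative chosen after seeing the data, miR-286-3p was 0.22 (it is in the cluster that picked these libraries, so this value follows from the choice), miR-210-3p -0.00702, miR-996-3p -0.17, miR-9375-3p 1.10, miR-4976-5p -1.08 and miR-305-5p -0.12. Leaving out 1 library at a time gave -0.0502 to 0.0533 for bantam-3p, -0.202 to 0.0501 for let-7-5p, -0.0464 to 0.0235 for miR-14-3p, -0.0617 to 0.156 for miR-210-3p, -0.122 to 0.0207 for miR-276b-3p, -0.0112 to 0.118 for miR-279-3p, -0.0395 to 0.155 for miR-305-5p, -0.223 to 0.379 for miR-4976-5p, -0.0289 to 0.0935 for miR-8-3p and -0.193 to 0.0378 for miR-92a-3p. The cause of these sign changes was not tested.

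With 1 library per temperature and time, dawn and dusk rest on 6 libraries each. Of the 27 intervals that reach past 2-fold, 19 are of rows under 100 reads and 8 of rows above. No paired analysis was possible because the labels give no replicate numbers. Seed families, and the alternatives planned for them, were not run, since no mature sequences were used.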

Other observations

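miRNAs that share a transcript can be read as groups. In the let-7 complex, which is switched on at metamorphosis and stays on in adults, let-7, miR-100 and miR-125 gave 6 tested strands, 3 higher and 3 lower at dawn, between -0.08 and 0.20. The 6 strands of mir-277, mir-34 and mir-317 lay between -0.04 and 0.26, and 4 were higher at dawn. Of 6 strands of mir-12, mir-283 and mir-304, 5 were higher at dawn (median 0.07), and of 8 strands of the mir-9c, mir-306, mir-79 and mir-9b cluster 6 were (median 0.08). None passed the test (background 0%).

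The muscle miRNA miR-1-3p was at 178464 to 653404 at dawn (median 346410.0) and 259796 to 509309 at dusk (median 435010.0), and miR-133-3p was at 13239 to 19678 at dawn and 13203 to 18867 at dusk. Testis-biased miRNAs of the mir-972 to mir-979 cluster summed to 25.0 to 50.1 at dawn and 24.5 to 47.2 at dusk.

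miR-956-3p fell into 2 well separated levels that followed neither dawn and dusk nor temperature. It was high at dawn in the ZT21 libraries of 18°C (948) and 29°C (1472), and at dusk at 18°C in ZT9 (556), at 25°C in ZT15 (1043) and at 29°C in ZT15 (1058). In the other 7 libraries it was between 37.4 and 100.1. All the high libraries except that of 18°C at ZT9 were of dark hours, though the dark libraries of 18°C at ZT15 and 25°C at ZT21 were low. Light against dark was not tested. miR-316-3p was highest in the 3 shallowest libraries, at 2916 in the dawn library of 29°C at ZT21 and at 2637 and 1302 in the dusk libraries of 18°C and 29°C at ZT9, and between 327 and 955 in the other 9, while miR-316-5p ran from 269.7 to 532 over all 12.

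Several minor strands of the mir-309 cluster were highest in 1 of the 4 libraries. miR-286-5p was at 103 in the dusk library of 25°C at ZT9 and between 0 and 17.0 elsewhere, and miR-6-1-5p and miR-6-3-5p were at 56.2 and 73.5 there and at most 1.79 and 5.10 elsewhere. In the dawn library of 18°C at ZT3, where miR-286-3p and miR-6-3p were as high, these strands were at 17.0, 1.79 and 2.68. Other minor strands were spread more widely: miR-6-2-5p was at 58.2 in the dusk library of 25°C at ZT9, at 23.2 in the dawn library of 18°C at ZT3 and at 12.7 in the dusk library of 29°C at ZT15, and miR-5-3p was highest in the last of these, at 13.6.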
